A study of Rattus norvegicus with 12 samples.

Results

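Transcripts of 10 genes of the interleukin-1 family, the interleukin-6 family and their closest partners were followed in rat bone taken from around mini-implants. The genes were Il1a, Il1b, Il1rn, Il1r1, Il1r2, Il6, Osm, Lif, Tnf and Ptgs2, chosen by symbol from the 33801 genes of the deposited table, and each symbol stood on 1 row. The bone came from wild-type rats at the maxillary first molar site, within a diameter of 4 mm. It was sampled beside implants of a zirconium, copper, aluminium and niobium alloy (Zr58Cu25Al14Nb3, called Nb3 alloy here) or of titanium (cpTi). Loaded implants received cyclic loading for 2 weeks and non-loaded implants stayed static. The 12 libraries of polyadenylated RNA form 4 groups of 3. Those beside the alloy are called loaded Nb3 alloy and non-loaded Nb3 alloy, those beside titanium loaded cpTi and non-loaded cpTi, and there is no bone without an implant. The labels give no strain, age or sex and do not say whether replicates came from different animals. The p-values therefore refer to the spread among these 12 samples, which may be technical.

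Interleukin-1 alpha and beta are alarm cytokines that act on 1 signalling receptor, Il1r1, and are held back by a receptor antagonist, Il1rn, and a decoy receptor, Il1r2. Interleukin-6, oncostatin M and leukaemia inhibitory factor signal through the shared chain gp130 and STAT3, while tumour necrosis factor and interleukin-1 both drive NF-kappaB. Ptgs2, also called cyclooxygenase-2, is the inducible enzyme of prostaglandin synthesis. In bone all of these are known to act on osteoclasts, the cells that resorb bone, mostly through RANKL made by osteoblasts and stromal cells, and prostaglandin E2 and interleukin-6 are also made there in response to mechanical strain.

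Values are FPKM, fragments per kilobase of gene length scaled by a factor for each library, and every ± is an SD over 3 libraries. Up to a common constant, that factor was 0.992 to 1.015 of a size factor from the median ratio of gene counts between libraries. It did not follow the total of reads on genes. Differences were tested with limma on log2(FPKM + 1), a scale that shrinks the change of low-expressed genes, and genes with an adjusted p (Benjamini-Hochberg) under 0.05 were called. Reads on genes numbered 16.8 to 22.3 M in loaded Nb3 alloy and 12.9 to 15.9 M in the other 9 libraries. The 3 loaded Nb3-alloy libraries stood apart, with correlations of 0.731 to 0.866 to the other 9 libraries, which correlated at 0.932 to 0.969 among themselves. Mitochondrial genes took 11.3 to 24.3% of their reads, against 4.31 to 6.86% in the other 9 libraries. Markers of osteoblasts, osteocytes and osteoclasts were present in all 12 libraries, as the bone label states, with summed osteoblast markers of 1229 to 7026 FPKM in loaded Nb3 alloy and 1459 to 4980 FPKM elsewhere. In bulk tissue, fewer cells of a type and less RNA per cell cannot be told apart.

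Loading beside the Nb3 alloy was the comparison with the most calls among these genes. Of the 10 genes, 6 rose in loaded over non-loaded Nb3 alloy (Il1b, Il1rn, Il1r1, Lif, Tnf and Ptgs2) and none fell by limma, where 20.7% of all 15268 tested genes were called higher and 25.2% lower. Il1r2 and Osm were tested and not called. Il1a and Il6 reached 1 FPKM in only 2 libraries each, fewer than the 3 needed, and were not tested. In 7 of the 10 genes every loaded Nb3-alloy library lay above every non-loaded one, against 22.9% of tested genes, and those 7 included Il6, which was not tested. Tnf passed the filter through the 3 loaded Nb3-alloy libraries and 1 other, so a library group had to differ for it to be tested at all. Of the other 7 tested genes 5 were called higher and 0 lower.

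The rank of the genes differed between the groups. In loaded Nb3 alloy Il1rn (117 ± 127 FPKM) and Il1b (94.7 ± 96.2 FPKM) led, ahead of Il1r1 (33.3 ± 6.96 FPKM) and Il1r2 (23.4 ± 22.5 FPKM), and these neighbours lay within each other's spread. Ptgs2 followed at 6.60 ± 3.35 FPKM, then Osm at 4.72 ± 2.93 FPKM, Tnf at 3.99 ± 2.72 FPKM, Il6 at 3.58 ± 3.37 FPKM, Lif at 2.70 ± 2.10 FPKM and Il1a at 1.42 ± 1.38 FPKM, again without gaps beyond the spread. In non-loaded Nb3 alloy the decoy receptor Il1r2 (24.7 ± 17.2 FPKM) and the antagonist Il1rn (18.9 ± 5.69 FPKM) led, ahead of Il1b (9.18 ± 3.27 FPKM) and Il1r1 (5.31 ± 0.369 FPKM). Il6 was then the lowest of the 10, at 0.0980 ± 0.0563 FPKM.

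**Figure D1:**
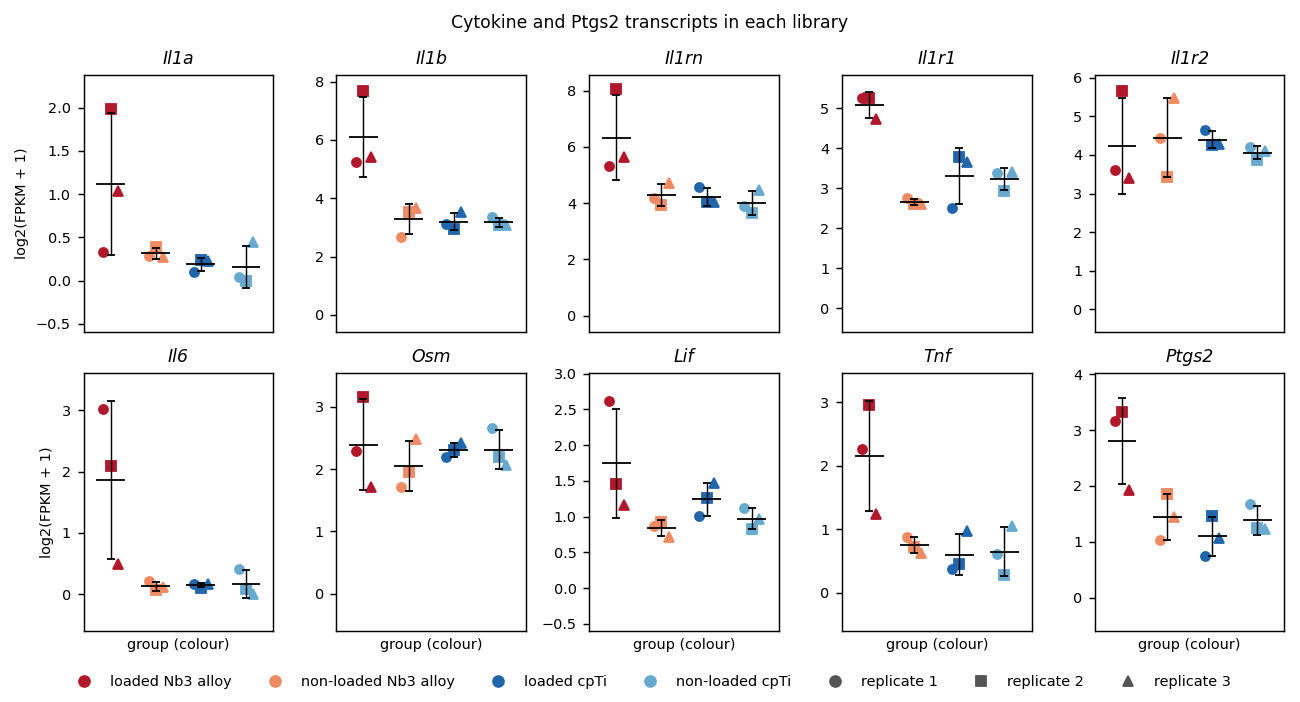
Each panel plots log2(FPKM + 1) of 1 gene in the 12 libraries, with colour for the group, shape for the replicate, and a bar with error for the group mean and SD (n = 3). Il1b, Il1rn, Il1r1, Il6, Lif, Tnf and Ptgs2 are higher in all 3 loaded Nb3-alloy libraries than in the 3 non-loaded ones, while Il1r2 and Osm overlap.

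Several of the genes are neighbours. In the deposited table, whose genome build is not given in the sources used here, Il1a (116526604 to 116536822) and Il1b (116577010 to 116583415) lie on the minus strand of chromosome 3, 40.2 kb apart with 0 genes between them. Il1r2 and Il1r1 lie on the plus strand of chromosome 9, 80.0 kb apart with 2 genes between them, and Osm and Lif on the plus strand of chromosome 14, 26.3 kb apart with 0 genes between. None of the 10 overlaps another annotated gene. Promoters, taken as 250 bases before to 50 bases after the annotated start, were matched for 7 of the 10 genes in a table of RefSeq promoters (GRCr8), and those of Il1r2, Osm and Lif were not analysed here. The promoters of 4 genes that were higher in every loaded than in every non-loaded Nb3-alloy library are shown, 5′ to 3′ on the gene's own strand, with motif matches in capitals. They are Il1b (chr3:137036532-137036831, minus strand), Il6 (chr4:5894526-5894825, minus strand), Il1r1 (chr9:50034133-50034432, plus strand) and Tnf (chr20:3626435-3626734, plus strand).
Il1b: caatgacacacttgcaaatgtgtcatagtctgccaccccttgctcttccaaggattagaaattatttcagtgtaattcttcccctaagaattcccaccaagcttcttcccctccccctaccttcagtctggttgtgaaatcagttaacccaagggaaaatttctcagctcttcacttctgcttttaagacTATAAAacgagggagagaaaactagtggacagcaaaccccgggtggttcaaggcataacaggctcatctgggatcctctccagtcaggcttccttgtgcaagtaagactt
Il6: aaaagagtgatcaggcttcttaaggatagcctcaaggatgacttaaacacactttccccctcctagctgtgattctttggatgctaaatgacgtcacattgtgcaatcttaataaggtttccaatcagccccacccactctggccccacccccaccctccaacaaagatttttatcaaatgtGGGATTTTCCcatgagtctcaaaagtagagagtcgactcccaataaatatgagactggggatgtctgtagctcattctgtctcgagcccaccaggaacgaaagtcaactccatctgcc
Il1r1: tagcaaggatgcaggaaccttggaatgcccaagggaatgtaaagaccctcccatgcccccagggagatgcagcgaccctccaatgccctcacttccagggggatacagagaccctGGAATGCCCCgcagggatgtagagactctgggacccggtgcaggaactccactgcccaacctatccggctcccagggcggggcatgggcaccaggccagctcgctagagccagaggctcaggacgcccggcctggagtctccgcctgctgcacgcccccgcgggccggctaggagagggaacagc
Tnf: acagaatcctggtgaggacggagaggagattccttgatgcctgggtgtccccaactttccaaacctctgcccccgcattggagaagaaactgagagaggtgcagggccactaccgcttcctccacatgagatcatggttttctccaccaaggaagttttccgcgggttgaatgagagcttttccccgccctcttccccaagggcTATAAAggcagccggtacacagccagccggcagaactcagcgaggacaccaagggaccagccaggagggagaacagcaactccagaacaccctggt

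The capitals mark a TATA box (TATAAA) at position -60 in Il1b and at position -46 in Tnf, counted from the annotated start to the first base of the match. They mark the kappaB consensus, the site bound by NF-kappaB, at position -68 in Il6 (GGGATTTTCC) and, on the other strand, at position -135 in Il1r1 (GGAATGCCCC as printed). Among the promoters not shown, Il1a had an AP-1 motif (TGANTCA) at position -12 and TATA boxes at position -32 and, on the other strand, at position -237, Il1rn a TATA box on the other strand at position -64, and Ptgs2 held none of the 4 motifs searched. The fourth motif, STAT (TTCNNNGAA), was found in none of the 7. All motifs were searched on both strands and no marked matches overlapped. The kappaB consensus occurred in 4.18% of 33469 rat promoters of the same length, AP-1 in 7.33%, the TATA box in 14.2% and STAT in 8.87%. A match is a description of the letters and not evidence of a bound site.

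Il1b, the main secreted interleukin-1 of macrophages and neutrophils, stood at 36.7, 206 and 41.7 FPKM in loaded Nb3 alloy, against 5.45, 10.5 and 11.6 FPKM in non-loaded Nb3 alloy. The groups did not overlap, and replicate 2 of loaded Nb3 alloy was far above the other two. The log2 difference was 2.83 (SE 0.53, limma adjusted p = 0.00141). Il1a, which stays with the cell and is released on damage, stood at 0.261, 2.94 and 1.05 FPKM in loaded Nb3 alloy, against 0.217, 0.308 and 0.204 FPKM in non-loaded Nb3 alloy. Its loaded replicate 1 lay inside the non-loaded range, and its counts were small, at 9, 111 and 38 reads in loaded and 7, 11 and 6 reads in non-loaded Nb3 alloy.

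Il1rn, the secreted antagonist that occupies Il1r1 without signalling, moved alongside Il1b. It stood at 38.5, 263 and 48.7 FPKM in loaded Nb3 alloy, against 17.1, 14.3 and 25.3 FPKM in non-loaded Nb3 alloy, again with replicate 2 highest and without overlap. The log2 difference was 2.05 (SE 0.58, limma adjusted p = 0.0134). Leaving out loaded Nb3-alloy replicate 2 gave 1.19 (adjusted p = 0.00738), and the call was lost when only these 6 libraries entered the fit (adjusted p = 0.0564).

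Il1r1, the receptor through which both interleukins signal, had a small spread in both groups. It stood at 37.3, 37.3 and 25.3 FPKM in loaded Nb3 alloy, against 5.73, 5.11 and 5.08 FPKM in non-loaded Nb3 alloy. The groups were far apart, with loaded replicate 3 the lowest of the loaded libraries. The log2 difference was 2.42 (SE 0.30, limma adjusted p = 9.40e-05), with 2.33 to 2.61 when any 1 of the 6 libraries was left out. Il1r2, the decoy receptor that binds interleukin-1 without signalling, stood at 11.2, 49.3 and 9.62 FPKM in loaded Nb3 alloy, against 20.7, 9.85 and 43.5 FPKM in non-loaded Nb3 alloy. These groups overlapped over almost their whole range, with 1 high library in each. Its log2 difference was -0.23 with a 95% interval of -1.5 to 1.04 (limma adjusted p = 0.771), so a change of either sign within that interval was not detectable here.

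Set against each other within a library, the ligand and the receptor pairs both shifted. Il1rn over Il1b was 1.05, 1.28 and 1.17 in loaded Nb3 alloy, against 1.36 to 3.13 in the other 9 libraries. Il1r2 over Il1r1 was 0.300, 1.32 and 0.380 in loaded Nb3 alloy, against 1.43 to 8.57 in the other 9 libraries. Antagonist transcripts thus still outnumbered Il1b transcripts per length in every library, by the narrowest margins in loaded Nb3 alloy. Signalling receptor transcripts exceeded decoy transcripts in loaded replicates 1 and 3 and in no other library. These ratios were formed with the levels in view and are given without a test.

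**Figure D2:**
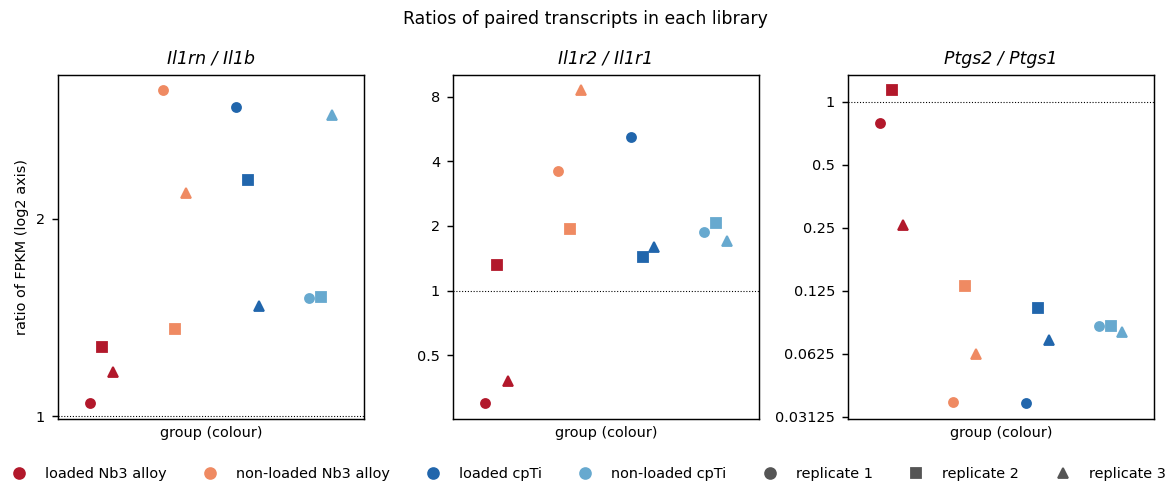
Each panel plots a ratio of 2 FPKM values in the 12 libraries on a log2 axis, with colour for the group and shape for the replicate, and the dotted line marks a ratio of 1. The loaded Nb3-alloy libraries are lowest for Il1rn over Il1b (1.05 to 1.28) and for Il1r2 over Il1r1 (0.300 to 1.32) and highest for Ptgs2 over Ptgs1 (0.258 to 1.14).

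The gp130 cytokines differed among themselves. Il6 stood at 7.10, 3.23 and 0.401 FPKM in loaded Nb3 alloy, against 0.159, 0.0478 and 0.0873 FPKM in non-loaded Nb3 alloy. All 3 loaded libraries were above all 3 non-loaded ones, but replicate 3 was close to them, and replicate 1 was highest, unlike for Il1b. The reads behind these values were 287, 143 and 17 in loaded and 6, 2 and 3 in non-loaded Nb3 alloy. In 2 of the 3 non-loaded libraries Il6 was at or under a floor of 3 reads, so no fold is given. With no filter on low values Il6 was called (log2 difference 1.73, SE 0.48, limma adjusted p = 0.0213) and Il1a was not (0.80, SE 0.33, adjusted p = 0.0978).

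Lif, a cytokine of stromal cells and bone, stood at 5.12, 1.75 and 1.25 FPKM in loaded Nb3 alloy, against 0.831, 0.907 and 0.647 FPKM in non-loaded Nb3 alloy. The groups did not overlap, and replicate 1 was highest, as for Il6. The log2 difference of 0.91 (SE 0.32, limma adjusted p = 0.0356) was the least stable of the called ones. Leaving out loaded replicate 1 gave 0.47 (adjusted p = 0.103), and the call was lost in 8 of 18 alternative settings (0.47 to 1.46). Osm, made mainly by neutrophils and macrophages, stood at 3.89, 7.97 and 2.29 FPKM in loaded Nb3 alloy, against 2.29, 2.86 and 4.60 FPKM in non-loaded Nb3 alloy. These groups overlapped, and the log2 difference of 0.34 had a 95% interval of -0.38 to 1.06 (limma adjusted p = 0.425).

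Tnf stood at 3.81, 6.80 and 1.37 FPKM in loaded Nb3 alloy, against 0.845, 0.660 and 0.549 FPKM in non-loaded Nb3 alloy, without overlap and with replicate 3 nearest to the non-loaded range. Its log2 difference was 1.41 (SE 0.38, limma adjusted p = 0.0105). On recovered reads, by limma-voom, it was 2.25 (adjusted p = 0.0264). Ptgs2 stood at 7.97, 9.05 and 2.78 FPKM in loaded Nb3 alloy, against 1.04, 2.62 and 1.71 FPKM in non-loaded Nb3 alloy. Loaded replicate 3 was just above the highest non-loaded library. The log2 difference was 1.36 (SE 0.36, limma adjusted p = 0.00973). Its constitutive relative Ptgs1 moved the other way (9.59 ± 1.46 FPKM in loaded Nb3 alloy and 25.2 ± 4.53 FPKM in non-loaded Nb3 alloy, log2 difference -1.30, SE 0.20, limma adjusted p = 3.63e-04). Ptgs2 over Ptgs1 was 0.792, 1.14 and 0.258 in loaded Nb3 alloy, against 0.0363 to 0.131 in the other 9 libraries.

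Replicate 2 of loaded Nb3 alloy was the highest library for Il1a, Il1b, Il1rn, Il1r2, Osm, Tnf and Ptgs2. It also had the highest mitochondrial share, 24.3%, and the highest summed markers of skeletal muscle (629.5 FPKM, with 141 and 3.24 FPKM in loaded replicates 1 and 3 and 7.03 to 30.2 FPKM in the other 9 libraries) and of oral epithelium (99.0 FPKM, with 5.68 and 11.6 FPKM in loaded replicates 1 and 3 and 15.5 to 33.2 FPKM elsewhere). Of the 3 loaded Nb3-alloy libraries it was also highest for monocyte and macrophage markers (4187 FPKM, with 2858 and 1064 FPKM in replicates 1 and 3). The same held for mature neutrophil (394, with 252 and 57.6 FPKM), endothelial (340, with 179 and 260 FPKM), neutrophil precursor and erythroid markers. Fibroblast and mast cell sums were lowest in replicate 2, and T-cell and B-cell sums lay in between. Whether these sums bear on the cytokine values was not tested. The summed bone markers of replicate 2 were the lowest of the 3 loaded Nb3-alloy libraries. Osteoblast markers summed to 1229 FPKM, with 6495 and 7026 FPKM in loaded replicates 1 and 3 and 1459 to 4980 FPKM elsewhere. Osteocyte markers summed to 632 FPKM (2513 and 2333 FPKM, and 311 to 2144 FPKM elsewhere). Osteoclast markers summed to 917 FPKM (4415 and 2868 FPKM, and 532 to 1529 FPKM elsewhere). Without replicate 2 all 6 called genes were still called, with log2 differences of 2.04 for Il1b, 1.19 for Il1rn, 2.33 for Il1r1, 1.05 for Lif, 1.01 for Tnf and 1.10 for Ptgs2.

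Markers of blood and stromal cells also differed between loaded and non-loaded Nb3 alloy, some lower and some higher, and their part in the result was not tested. The counts of calls below stand beside 20.7% higher and 25.2% lower over all tested genes. Summed markers of mature neutrophils were 57.6 to 394 FPKM in loaded Nb3 alloy, against 4881 to 15004 FPKM in non-loaded Nb3 alloy, with all 6 tested of its 8 markers called lower and, of the 2 untested ones, Fpr2 listed at 0 in the 3 loaded libraries and Cxcr1 at 0.0454 to 0.435 FPKM in loaded Nb3 alloy and at 0 in all 3 non-loaded libraries. Neutrophil precursor markers summed to 1.26 to 2.46 FPKM in loaded Nb3 alloy and 1113 to 2455 FPKM in non-loaded Nb3 alloy, with 5 of 5 lower. Il1b, Il1rn, Il1r2 and Osm are all known neutrophil transcripts. In loaded over non-loaded Nb3 alloy, Il1b and Il1rn were called higher. Il1r2 (log2 difference -0.23, limma interval -1.50 to 1.04) and Osm (0.34, interval -0.38 to 1.06) were not called, and their intervals include falls as well as rises. Whether the lower neutrophil markers bear on the values of these genes was not tested. Monocyte and macrophage markers overlapped, at 1064 to 4187 FPKM in loaded Nb3 alloy and 3003 to 4551 FPKM in non-loaded Nb3 alloy, with 3 of 12 higher and 2 of 12 lower. Fibroblast markers summed to 8657 to 11887 FPKM in loaded Nb3 alloy and 1669 to 4274 FPKM in non-loaded Nb3 alloy, with 6 of 6 higher. Most of that sum was Col1a1, at 7323 ± 2377 FPKM in loaded Nb3 alloy. The sum was also higher in loaded cpTi (6123 to 6376 FPKM) than in non-loaded cpTi (1893 to 3175 FPKM), with 0 of 6 called. Endothelial markers summed to 179 to 340 FPKM in loaded Nb3 alloy and 56.4 to 92.2 FPKM in non-loaded Nb3 alloy, with 4 of 5 higher. T-cell markers summed to 38.3 to 48.9 FPKM in loaded Nb3 alloy and 6.66 to 25.8 FPKM in non-loaded Nb3 alloy, with 3 of 4 higher. Erythroid markers summed to 2.06 to 12.8 FPKM in loaded Nb3 alloy and 901 to 1395 FPKM in non-loaded Nb3 alloy, with all 3 found of 5 lower. Markers of B cells (28.0 to 65.0 FPKM in loaded and 236 to 457 FPKM in non-loaded Nb3 alloy, 4 of 4 lower) and of mast cells (at most 30.4 FPKM in loaded and 60.8 to 124 FPKM in non-loaded Nb3 alloy, 4 of 5 lower) were lower as well.

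The other genes of these pathways were counted over 5 lists with 106 genes, of which 101 were in the table and 86 were tested. Genes known to be induced by IL-1, TNF or IL-6 were the list with the most rises, at 16 of 21 tested, with 2 lower and a median log2 difference of 1.88, beside 20.7% higher, 25.2% lower and a median of -0.02 over all tested genes. Of these 21, Cxcl2, Cxcl6, Mmp3, Ccl7 and Csf3 reached 1 FPKM in fewer than 3 libraries outside loaded Nb3 alloy, so these 5 had to be high there to be tested, and of the other 16 genes 11 were called higher and 2 lower. Sele, the endothelial adhesion molecule E-selectin, rose by 3.24 (SE 0.35, limma adjusted p = 4.41e-05), and Ccl2, which draws monocytes, by 3.28 (SE 0.49, adjusted p = 3.46e-04). Csf3, the growth factor of neutrophils, averaged 1.86 ± 0.588 FPKM in loaded Nb3 alloy and was listed at 0 in all 3 non-loaded Nb3-alloy libraries (adjusted p = 1.73e-04). The list's 2 genes called lower, looked up after the counts, were Lcn2, a granule protein of neutrophils (-2.11), and the adhesion molecule Vcam1 (-1.01). Tnfsf11, the RANKL gene, also stood in that list, at 8.58 ± 4.35 FPKM in loaded Nb3 alloy and 1.74 ± 1.15 FPKM in non-loaded Nb3 alloy (1.79, SE 0.38, limma adjusted p = 0.00293), and is named here for its role in bone.

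In the IL-6 family list 9 of 16 tested genes were called higher and 2 lower, with a median of 0.64, against 20.7% higher and 25.2% lower over all tested genes. Socs3, a feedback inhibitor of gp130 signalling, rose by 3.0 (SE 0.40, limma adjusted p = 1.71e-04), to 76.0 ± 44.1 FPKM in loaded Nb3 alloy, against 7.26 ± 0.765 FPKM in non-loaded Nb3 alloy. The receptor chains for oncostatin M and interleukin-11 rose as well, Osmr by 1.82 (SE 0.21, adjusted p = 6.08e-05) and Il11ra1 by 2.21 (SE 0.28, adjusted p = 1.25e-04). Among receptors looked up after the counts, Il6st, the gene of gp130, rose by 1.5, whereas the interleukin-6 receptor gene Il6r was lower (-1.53) and Lifr was not called (-0.08, limma adjusted p = 0.905).

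In the TNF list 8 of 19 tested genes were called higher and 1 lower, with a median of 0.45, against 20.7% higher and 25.2% lower over all tested genes. Tnfaip6, an anti-inflammatory hyaluronan-binding protein, rose by 1.52 (SE 0.27, limma adjusted p = 0.00102), and the NF-kappaB inhibitor gene Nfkbia by 1.47 (SE 0.26, adjusted p = 0.00105). The lower gene was Tnfaip8 (-1.34, SE 0.22, adjusted p = 5.98e-04). The receptors Tnfrsf1a (0.45, adjusted p = 0.138) and Tnfrsf1b (0.11, adjusted p = 0.838) were not called.

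The IL-1 list and the prostaglandin list had shares of calls near those of all tested genes, which were 20.7% higher and 25.2% lower. In the IL-1 list 2 of 16 tested genes were called higher and 5 lower, with a median of -0.07. The cytokine gene Il18 rose by 1.44 (SE 0.31, limma adjusted p = 0.00288) together with Il18bp, which encodes its soluble inhibitor (1.35, SE 0.25, adjusted p = 0.00131), and the adaptor gene Traf6 was lower (-1.03, SE 0.19, adjusted p = 0.00138). The 7 calls became 4 without non-loaded Nb3-alloy replicate 3 and 4 with only these 6 libraries in the fit. In the prostaglandin list 2 of 14 were called higher and 4 lower, with a median of -0.32. Slco2a1, a prostaglandin transporter gene, rose by 3.05 (SE 0.40, limma adjusted p = 1.48e-04), and the leukotriene genes Alox5 (-3.06, SE 0.30, adjusted p = 1.92e-05) and Alox5ap (-2.37, SE 0.36, adjusted p = 3.57e-04), both of which neutrophils express strongly, were lower. Without loaded Nb3-alloy replicate 2 the calls in either direction numbered 14 in place of 18 in the induced list, 11 in place of 11 in the IL-6 list, 7 in place of 9 in the TNF list, 8 in place of 7 in the IL-1 list and 9 in place of 6 in the prostaglandin list. The filter was applied again without that library. Cxcl2, Ccl7, Mmp3 and Csf3 reached 1 FPKM in only 3 libraries and could leave the test, so the 14 may rest on fewer tested genes.

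**Figure D3:**
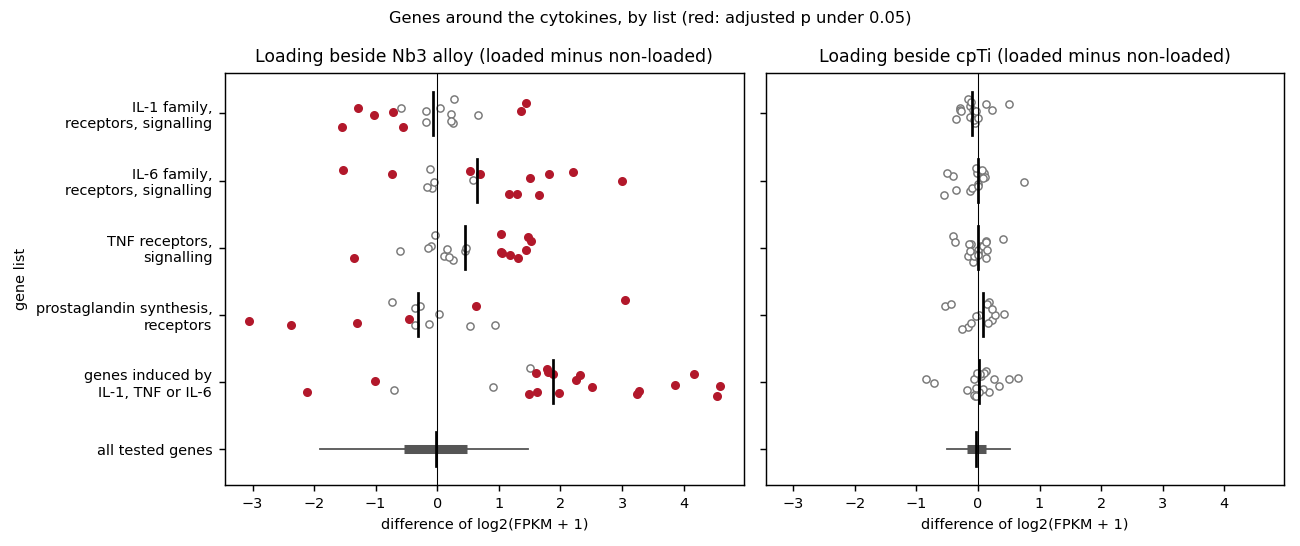
Each point is the difference of log2(FPKM + 1) of 1 list gene, loaded minus non-loaded, beside Nb3 alloy on the left and beside cpTi on the right, with called genes in red. Black ticks are list medians, and the bottom row gives the median, the quartile box and the 5th to 95th percentile line of all 15268 tested genes. Beside Nb3 alloy the induced genes have a median of 1.88, and beside cpTi 0 genes are called in any list. That median includes 5 genes that had to be high in loaded Nb3 alloy to be tested.

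With loading beside cpTi no difference was detected among the tested genes, and Il1a and Il6 were not tested. By limma 0 of the 8 tested were called, and 1 of 15268 genes was (0.00655%), with 1062 genes at an unadjusted p under 0.05 and 0 genes called by limma-voom. The log2 differences lay between -0.29 for Ptgs2 and 0.34 for Il1r2, with adjusted p of 0.889 to 0.997. Il1b stood at 7.69, 6.73 and 10.5 FPKM in loaded cpTi, against 9.25, 7.49 and 7.40 FPKM in non-loaded cpTi. These groups overlapped, and the 95% interval of the difference was -1.14 to 1.2. Il1r1 stood at 4.68, 12.6 and 11.6 FPKM in loaded cpTi, against 9.34, 6.57 and 9.52 FPKM in non-loaded cpTi, also with overlap.

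Il6 was low beside cpTi, at 0.117, 0.0759 and 0.122 FPKM in loaded cpTi, against 0.337, 0.0608 and 0 FPKM in non-loaded cpTi. Those values rest on 4, 3 and 5 reads in loaded and 13, 2 and 0 reads in non-loaded cpTi, and a count of 0 allows up to 0.0830 FPKM (3 reads) in that library. Il1r2, at 24.2, 18.0 and 18.4 FPKM in loaded cpTi and 17.5, 13.6 and 16.2 FPKM in non-loaded cpTi, was the 1 gene of the 10 without overlap, which 7.00% of tested genes showed in that direction. Its difference was not called (0.34, 95% interval -0.93 to 1.60, limma adjusted p = 0.936). None of the 86 tested list genes was called.

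Material under loading set loaded Nb3 alloy against loaded cpTi, and it reuses the 3 loaded Nb3-alloy libraries of the loading comparison. Of the 10 genes 5 were called higher in loaded Nb3 alloy than in loaded cpTi and none lower, where 14.7% of tested genes were called higher and 18.9% lower. The 5 include Tnf, which had to be high in loaded Nb3 alloy to be tested. In 7 of the 10 genes all loaded Nb3-alloy libraries lay above all loaded cpTi libraries, against 21.0% of tested genes, and those 7 included Il1a and Il6, which were not tested. Il1b averaged 94.7 ± 96.2 FPKM in loaded Nb3 alloy and 8.30 ± 1.94 FPKM in loaded cpTi (log2 difference 2.92, SE 0.53, limma adjusted p = 0.00202), and its difference was 2.13 without loaded Nb3-alloy replicate 2. Il1r1 averaged 33.3 ± 6.96 FPKM in loaded Nb3 alloy and 9.64 ± 4.32 FPKM in loaded cpTi (1.77, SE 0.30, adjusted p = 0.00124).

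Il1rn stood at 22.7, 15.4 and 15.4 FPKM in loaded cpTi, all below the loaded Nb3-alloy libraries (log2 difference 2.11, SE 0.58, limma adjusted p = 0.0165). It lost its call without loaded cpTi replicate 3 (2.03, adjusted p = 0.0536) and with only these 6 libraries in the fit (adjusted p = 0.0679), and was 1.26 without loaded Nb3-alloy replicate 2. Ptgs2, at 0.685, 1.75 and 1.11 FPKM in loaded cpTi, differed by 1.71 (SE 0.36, limma adjusted p = 0.00456). Tnf, at 0.297, 0.367 and 0.957 FPKM in loaded cpTi, differed by 1.56 (SE 0.38, limma adjusted p = 0.00930). Both were lower in every loaded cpTi library than in any loaded Nb3-alloy library.

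Lif and Osm did not separate the materials under loading. Lif, at 1.01, 1.39 and 1.77 FPKM in loaded cpTi, overlapped loaded Nb3 alloy (log2 difference 0.50, 95% interval -0.19 to 1.19, limma adjusted p = 0.246). Osm, at 3.57, 3.94 and 4.35 FPKM in loaded cpTi, overlapped it too (0.08, 95% interval -0.64 to 0.81, adjusted p = 0.868). Il1r2 differed by -0.17 (95% interval -1.44 to 1.09, adjusted p = 0.846). Il6, with no filter on low values, differed by 1.72 (SE 0.48, limma adjusted p = 0.0312), while its interaction of loading and material in that fit was not called (1.75, SE 0.68, adjusted p = 0.145).

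Without loading, no difference between the materials was detected among the tested genes. By limma 0 of the 8 were called, and 0 of 15268 genes were (0%), with 470 at an unadjusted p under 0.05 and 0 genes by limma-voom. Log2 differences of non-loaded Nb3 alloy minus non-loaded cpTi lay between -0.57 for Il1r1 and 0.39 for Il1r2, each with an adjusted p of 1. Il1r1, at 5.73, 5.11 and 5.08 FPKM in non-loaded Nb3 alloy, against 9.34, 6.57 and 9.52 FPKM in non-loaded cpTi, was the 1 gene of the 10 without overlap, and it was lower beside the alloy, which 4.41% of tested genes showed in that direction. The 95% interval of its difference was -1.23 to 0.08. Tnf averaged 0.685 ± 0.150 FPKM in non-loaded Nb3 alloy and 0.611 ± 0.438 FPKM in non-loaded cpTi, and Lif averaged 0.795 ± 0.134 FPKM in non-loaded Nb3 alloy and 0.969 ± 0.198 FPKM in non-loaded cpTi.

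The interaction of loading and material asks whether the loading difference beside Nb3 alloy exceeded the one beside cpTi. By limma it was called for 3 of the 10 genes, all higher, where 8.42% of tested genes were called higher and 11.8% lower. Il1b gave 2.80 (SE 0.75, adjusted p = 0.0243), Il1r1 gave 2.34 (SE 0.42, adjusted p = 0.00367) and Ptgs2 gave 1.65 (SE 0.51, adjusted p = 0.0426). Tnf (1.46, SE 0.54, limma adjusted p = 0.0777) and Il1rn (1.84, SE 0.82, adjusted p = 0.138) missed the threshold, so for them the loading effects beside the 2 materials were not shown to differ. Lif (0.63, adjusted p = 0.353), Osm (0.35, adjusted p = 0.648) and Il1r2 (-0.56, adjusted p = 0.672) were not called. In the list of induced genes 11 of 21 tested were called higher in the interaction and 1 lower, and in the IL-6 list 5 of 16 were called higher and 2 lower. The 21 induced genes include the 5 that had to be high in loaded Nb3 alloy to be tested, so the filter favoured rises in that count.

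Il1r1 kept its interaction call in all 23 alternative settings (1.94 to 2.57). Il1b lost it without non-loaded Nb3-alloy replicate 1 (2.50, limma adjusted p = 0.0524) and without loaded cpTi replicate 1 (2.76, adjusted p = 0.0548), and was still called at 2.01 without loaded Nb3-alloy replicate 2 (adjusted p = 0.00437). Ptgs2 lost it in 13 of 23 settings, with log2 values of 1.39 to 2.29, and Tnf gained it without loaded Nb3-alloy replicate 3 (1.92, adjusted p = 0.0101).

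**Figure D4:**
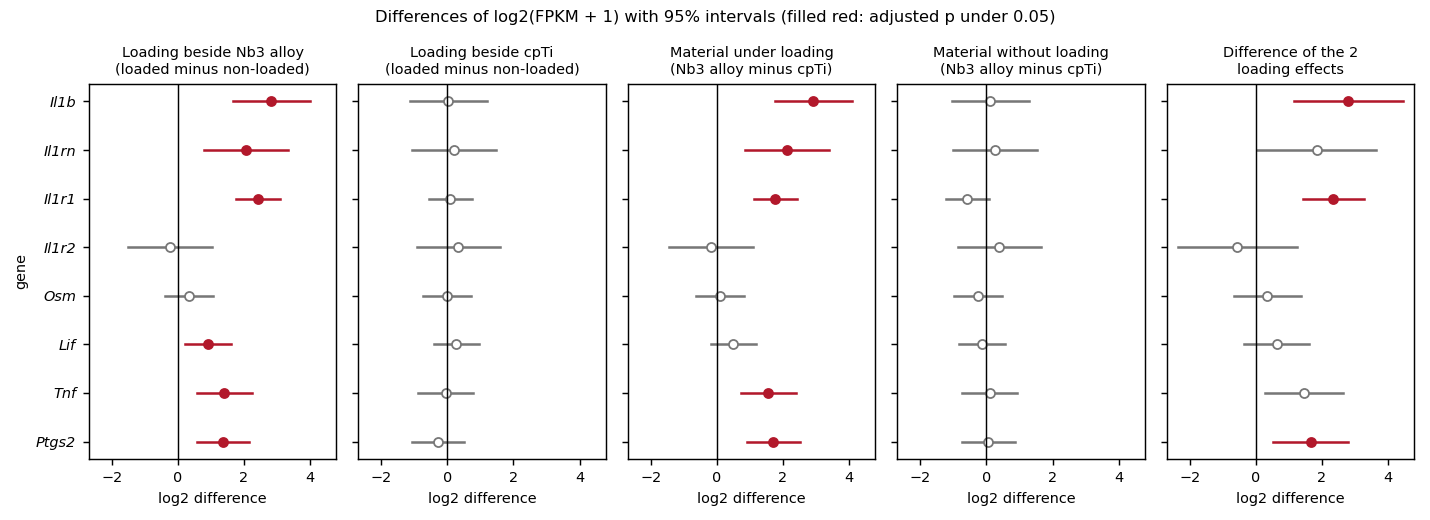
Points are differences of log2(FPKM + 1) of the 8 tested genes in the 5 comparisons, lines are 95% intervals from limma, and filled red marks an adjusted p under 0.05. The called genes number 6 for loading beside Nb3 alloy, 5 for material under loading and 3 for the difference of the loading effects, and 0 in the other comparisons.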

How the data were processed

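Per the labels' protocols, TRIzol was used to isolate RNA and a NEBNext Ultra kit to prepare the polyadenylated libraries. The authors deposited FPKM of 33801 genes in 1 table that also holds the length and position of each gene. The submitters' processing notes list, without a role for each, DESeq2 1.20.0, featureCounts 1.5.0-p3, HISAT2 2.0.5, CASAVA 1.8 and fastp. The build, annotation and strandedness used were not given in the sources used here. Reads of a gene and of an antisense transcript therefore cannot be told apart.

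A gene was tested at 1 FPKM or more in at least 3 libraries (15268 genes, with 18533 not tested). The fit of log2(FPKM + 1) used limma 3.58.1 (R 4.3.3) over all 12 libraries, with a mean for each group, 8 residual degrees of freedom and trended, robust empirical Bayes moderation. FPKM multiplied by gene length gave whole reads for 100% of values within 0.05 read, which served descriptions, scaling alternatives and limma-voom only. The fit was tested on simulated data. A floor of 3 reads covers counting error only. The members and lists were chosen with earlier results of these data known. The genes named are the members and, from each list, up to 3 called genes with the smallest p in loading beside Nb3 alloy, and others are marked in the text as looked up later. The alternatives were total-read, nuclear-read (added after seeing the data), recomputed size-factor and quantile scaling, no filter, another filter, a pseudocount of 0.1, limma-voom, a fit without robust moderation, a threshold with a log2 difference of at least 1, only the groups compared, a replicate block, and leaving out each library.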

Additional observations from a re-analysis of the deposited data

Results flagged for a closer look

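In 3 genes the loading difference beside Nb3 alloy differed from the one beside cpTi by a test of that difference in limma. Over all tested genes 8.42% were called higher and 11.8% lower in that test. Il1b gave an interaction of 2.80 on the log2 scale (Benjamini-Hochberg adjusted p = 0.0243), from 2.83 beside Nb3 alloy and 0.03 beside cpTi, and was not called in 2 of 23 alternative settings. Il1r1 gave 2.34 (adjusted p = 0.00367), from 2.42 beside Nb3 alloy and 0.08 beside cpTi. Ptgs2 gave 1.65 (adjusted p = 0.0426), from 1.36 beside Nb3 alloy and -0.29 beside cpTi, and was not called in 13 of 23 alternative settings. No test for outlying samples was run, since each group holds 3 libraries.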

How the results depend on the processing

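The counts of called genes under the alternatives were 4 to 6 of 10 for loading beside Nb3 alloy, 4 to 6 for material under loading, 0 for loading beside cpTi and for material without loading, and 1 to 4 for the interaction, which stood at 1 without non-loaded Nb3-alloy replicate 1 or loaded cpTi replicate 1, against 3 with all libraries. Il1r1 kept its call in all settings of the 3 comparisons where it was called. Il1b, Tnf and Ptgs2 kept theirs in loading beside Nb3 alloy and in material under loading, though Tnf had to be high in loaded Nb3 alloy to pass the main filter. The replicate block left the counts at 6, 0, 5, 0 and 3 in the 5 comparisons. Same-numbered libraries of different groups correlated at -0.25 to 0.12 after group means were removed (1 of 18 pairs over 0.1), and 0 of 12 libraries were closest to their own number. With 3 libraries of bulk tissue per group, such correlations cannot show whether same-numbered samples shared an animal or a batch.

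Of the differences that were not called, some changed sign. Osm in loading beside cpTi was -0.01 and became 0.01 with recomputed size factors (0.00776) and with limma-voom (0.0107), and in material under loading it became -0.065 with total-read scaling. When a library was left out, the log2 values ranged as follows for those that changed sign, and the cause was not tested. Beside Nb3 alloy, Il1r2 ranged over -0.94 to 0.28 and Osm over -0.048 to 0.68. Beside cpTi, Il1b ranged over -0.14 to 0.15, Il1r1 over -0.15 to 0.48, Osm over -0.13 to 0.17 and Tnf over -0.24 to 0.15. For material under loading, Il1r2 ranged over -0.89 to 0.24 and Osm over -0.30 to 0.42. For material without loading, Il1b ranged over -0.063 to 0.42, Il1r2 over -0.12 to 0.90, Tnf over -0.087 to 0.30 and Ptgs2 over -0.15 to 0.26. The interaction of Osm ranged over -0.041 to 0.68. Total-read scaling moved the median of all genes to -0.17 in loading beside Nb3 alloy, with 2265 genes higher and 4679 lower, against 3156 higher and 3840 lower as deposited and 3573 higher and 3337 lower with quantile scaling. Il6 and Il1a rest on few reads outside loaded Nb3 alloy (0 to 13), which limits what can be said of them there.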

Other observations

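Genes with profiles most like those of 4 members were listed by the root mean square difference of standardized log2(FPKM + 1) over the 12 libraries, as a description. Nearest to Il1b were Acod1, the itaconate enzyme of activated macrophages (0.230), the mitochondrial gene Mt-nd3 (0.231) and Pcp4, a calmodulin-binding protein (0.232). Nearest to Il1rn were Klhl2 (0.184), the inducible nitric oxide synthase gene Nos2 (0.214) and Mlkl, the executor of necroptosis (0.220). Nearest to Il1r1 were Steap1 (0.133), the oxysterol hydroxylase gene Cyp7b1 (0.251) and the connexin gene Gja5 (0.266), and nearest to Il6 were Lat (0.280), Artn (0.318) and the transcription factor gene Cebpd (0.320). Acod1 averaged 44.0 FPKM in loaded Nb3 alloy, 0.0956 FPKM in non-loaded Nb3 alloy, 0.329 FPKM in loaded cpTi and 0.319 FPKM in non-loaded cpTi. All 12 genes share the libraries, including loaded Nb3-alloy replicate 2 with its mitochondrial share of 24.3%.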
